A study of Homo sapiens with 6 samples.

Results

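The comparison described here sets SKM-1 cells given vemurafenib together with BOR (VEM+BOR) against SKM-1 cells given vemurafenib alone (VEM), 2 of the 6 libraries of the series. Both libraries hold vemurafenib, and by their labels they differ in BOR alone. SKM-1 is a human cell line of acute myeloid leukaemia, established from a disease that had begun as a myelodysplastic syndrome. VEM is vemurafenib, a RAF kinase inhibitor made against mutant BRAF. BOR is a compound whose abbreviation the labels leave unexpanded. The other libraries were 2 of cells given BOR alone (BOR 1 and BOR 2) and 2 of untreated cells (untreated 1 and untreated 2). The cells of all groups carried the same line label, and neither a dose nor an exposure time was known. By its title, the study asked about vemurafenib, senescence and the HIPPO pathway.

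The RAF, MEK and ERK kinases pass growth signals from RAS to the nucleus. In cells whose BRAF is not mutated, RAF inhibitors can raise ERK signalling, because an inhibitor-bound RAF molecule activates its partner. Myeloid leukaemia cells are arrested on the path to granulocytes and monocytes. Genes of that path are switched on in stages, with azurophil granule enzymes first and phagocyte receptors, oxidase subunits and late granule proteins afterwards.

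Poly-A RNA was sequenced, and each gene has a normalised read count per library. The VEM+BOR library held 18337577 reads assigned to genes and the VEM library 17252404. Of 23519 genes found in every deposited table, 15438 had a mean of at least 10 normalised reads over the 6 libraries and were kept. With 1 library of each group the difference has no replicate check, and no p-value is given. A difference is that of log2(normalised reads + 1), VEM+BOR minus VEM, and a call is a difference of at least 2-fold on that scale. Beside it stands the difference of the untreated pair for the same gene, untreated 2 minus untreated 1, since those libraries carry the same label. Fold ratios are ratios of normalised reads, and their 95% intervals (exact Clopper-Pearson) cover counting error only, which leaves out the spread between cultures.

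All 11 markers of myeloid leukaemia cells were kept, among them PTPRC, SPI1, MPO and ELANE. Summed, they reached 57563 normalised reads in VEM+BOR and 56851 in VEM, against 106837 and 124382 in the untreated libraries. The sums lean on the azurophil granule genes PRTN3, ELANE and MPO, which were lower in both libraries with vemurafenib than in untreated cells. PRTN3 alone had 16544 in VEM+BOR and 17286 in VEM, against 46551 and 52914 in the untreated libraries. Not every marker went this way, and CEBPE had 10037 and 8066 against 6025 and 6110. Of 5 T cell markers 0 were in the joined tables. The 4 B cell markers that were kept summed to 140.3 reads in VEM+BOR and 188 in VEM, and the erythroid, epithelial, fibroblast and endothelial markers summed to at most 61.8 in either library. PECAM1, an endothelial marker that leukocytes also express, had 27.2 reads in VEM+BOR and 4.55 in VEM, and its part in the results was not tested. In bulk RNA, fewer cells with a transcript and less of it per cell cannot be told apart. The BOR 2 library stood apart from the rest. Its correlation with the other libraries over genes was 0.860 to 0.879, whereas the other 5 libraries correlated at 0.964 to 0.985 with each other. BOR 2 enters neither side of VEM+BOR against VEM. The shares of 2-fold genes beside the untreated pair are given for each BOR library alone too, while some other counts require both.

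VEM+BOR and VEM were more alike than the untreated pair. Over the 15438 genes the differences VEM+BOR minus VEM had an SD of 0.48, and those of the untreated pair an SD of 0.68. The correlation over genes was 0.983 for VEM+BOR with VEM and 0.968 for the untreated pair. In VEM+BOR, 266 genes (1.72%) were at least 2-fold higher than in VEM and 556 (3.6%) at least 2-fold lower. Between the untreated libraries, 380 genes (2.46%) were at least 2-fold higher in untreated 2 and 1394 (9.03%) at least 2-fold lower. The number of 2-fold differences was therefore below that between libraries of 1 label. Restricted to genes that also differed by more than the untreated pair did, 223 genes (1.44%) were higher and 380 (2.46%) lower. Past 4-fold, 23 genes were higher and 49 lower in VEM+BOR, against 28 higher and 235 lower in untreated 2.

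**Figure D1:**
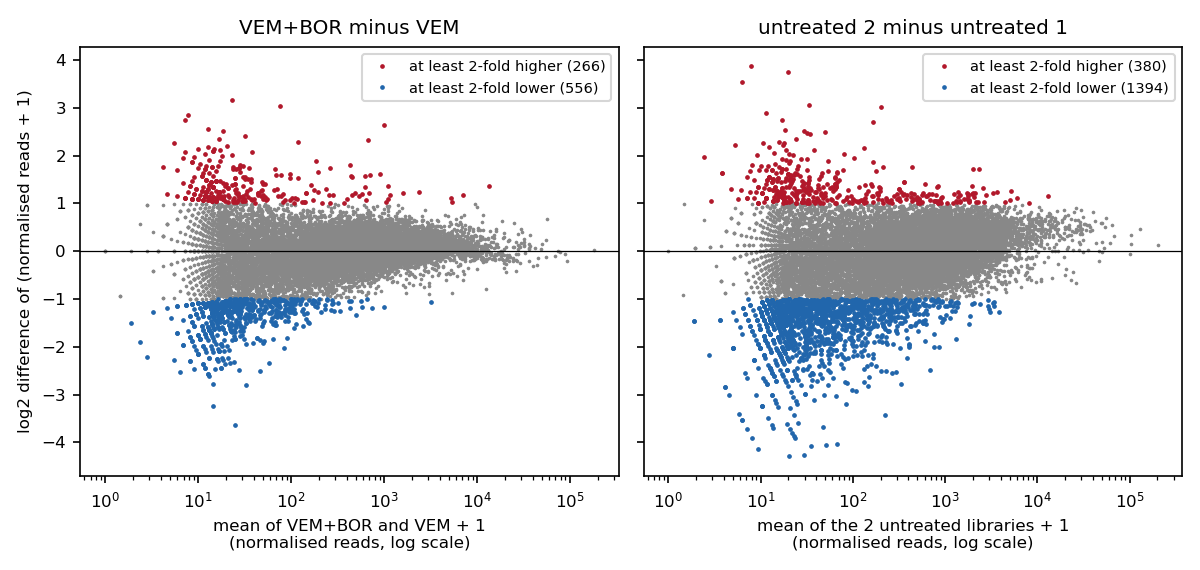
Log2 difference of each gene (vertical axis) against the mean of the pair plus 1 in normalised reads (horizontal log axis), for VEM+BOR minus VEM (left) and untreated 2 minus untreated 1 (right). Red and blue points are the genes at least 2-fold higher (266 and 380) and lower (556 and 1394), and both panels spread most at low read counts.

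Most of the 2-fold differences lay among weakly expressed genes. The median mean of the pair was 19.9 normalised reads for the higher genes and 22.3 for the lower genes, against 378.3 for all genes. Among 4030 genes with a pair mean of at least 1000, 11 were 2-fold higher in VEM+BOR and 1 was lower. That gene was CHI3L1, which encodes a chitinase-like protein secreted by neutrophils and macrophages. Long non-coding RNA genes made up 22.2% of the higher genes and 34.2% of the lower genes, against 10.8% of all genes. Protein-coding genes made up 62.4% of the higher and 55.4% of the lower genes, against 82.7% of all. The higher and lower genes were also shorter, with a median gene length, as the deposited tables give it, of 2912 and 2934.5 bases, against 4551 over all genes. Of the 556 lower genes, 237 (42.6%) were also at least 2-fold lower in untreated 2 than in untreated 1, where 9.03% of all genes were. Of the 266 higher genes, 50 (18.8%) were also 2-fold higher in untreated 2, where 2.46% of all genes were. Over all genes, the difference VEM+BOR minus VEM and that of the untreated pair correlated at 0.34. These pairs share no library, genes are not independent replicates, and what moved both was not tested.

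The places of VEM+BOR and VEM beside the untreated pair were also counted, as a description, because choosing genes on the difference between 2 libraries pushes them apart. Among the 266 higher genes, VEM+BOR lay above both untreated libraries for 167 (62.8%), against 31.5% of all genes. VEM lay below both untreated libraries for 175 of them (65.8%), against 27.3% of all genes. For 65 genes (24.4%) VEM was below the untreated pair and VEM+BOR between the untreated libraries, and for 36 genes (13.5%) both were above. Among the 556 lower genes, VEM+BOR lay below both untreated libraries for 368 (66.2%), against 26.6% of all genes. VEM lay above both for 275 of them (49.5%), against 30.9% of all genes.

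Several of the genes with the largest positive differences are known from phagocytes. TYROBP, on chromosome 19 from 35904401 to 35908295, encodes the adaptor DAP12, which carries the signal of activating myeloid receptors. It had 135 normalised reads in VEM+BOR and 15.5 in VEM, and 177 and 179 in the BOR libraries against 21.9 and 14.5 in the untreated libraries. Every library with BOR held more TYROBP than every library without it. The ratio of VEM+BOR to VEM was 8.72-fold (5.27 to 15.4, from 149 and 17 reads), a log2 difference of 3.05, while the untreated pair differed by -0.56.

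Clusterin (CLU), a secreted chaperone that also binds complement, showed the same order at a higher level. It had 1730 normalised reads in VEM+BOR and 276 in VEM, and 1324 and 1507 in the BOR libraries against 435 and 341 in the untreated libraries. Again the libraries with BOR and those without did not overlap. TYROBP and CLU were chosen for a large difference of VEM+BOR from VEM, which is part of that separation. Of the 266 higher genes, 62 (23.3%) lay above both untreated libraries in both BOR libraries, against 11.5% of all genes. The share of all genes that separate fully was not counted. The ratio of CLU was 6.28-fold (5.56 to 7.11) and its log2 difference 2.65. SERPINB2, on chromosome 18, encodes plasminogen activator inhibitor 2. It had 1120 normalised reads in VEM+BOR and 222 in VEM, and 621 and 173 in the BOR libraries against 132 and 160 in the untreated libraries, so BOR 2 lay little above untreated 2. The ratio was 5.05-fold (4.39 to 5.81). CFP encodes properdin, the complement regulator that neutrophils release. It had 197 normalised reads in VEM+BOR and 40.0 in VEM, and 337 and 303 in the BOR libraries against 203 and 113 in the untreated libraries. VEM was the lowest library for CFP, and VEM+BOR lay between the untreated ones.

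CYBB encodes the catalytic subunit of the phagocyte NADPH oxidase. It had 293 normalised reads in VEM+BOR and 78.2 in VEM, a ratio of 3.75-fold (2.95 to 4.81), with 91.3 and 25.3 in the BOR libraries against 44.7 and 35.8 in the untreated libraries. Both BOR libraries lay far below VEM+BOR, and they lay on opposite sides of the untreated pair. ALOX5AP, the protein that presents arachidonic acid to 5-lipoxygenase, had 664 normalised reads in VEM+BOR and 190.1 in VEM, and 247 and 437 in the BOR libraries against 114 and 125 in the untreated libraries. Its log2 difference was 1.80, and VEM+BOR was the highest of the 6 libraries. LRRK2, a large kinase expressed in monocytes, had 934 normalised reads in VEM+BOR and 314 in VEM, with 336 and 48.0 in the BOR libraries against 161 and 130 in the untreated libraries. The receptor for the complement fragment C3a, C3AR1, had 117 normalised reads in VEM+BOR and 38.2 in VEM, with 30.1 and 151 in the BOR libraries against 14.0 and 26.1 in the untreated libraries. TNFSF10, the death ligand TRAIL, had 299 in VEM+BOR and 94.6 in VEM, with 298 and 261 in the BOR libraries against 193 and 192 in the untreated libraries. The other leading higher genes were U2AF1, EVI2B, ZNF296, PTPN22, KLHDC7B and FAM13B, with log2 differences from 1.55 to 1.75. U2AF1, a splicing factor subunit, has a near-identical copy in the GRCh38 assembly, so its value is uncertain. The value of EVI2B, a granulocyte membrane protein, was 1.72, against 1.66 for the untreated pair.

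**Figure D2:**
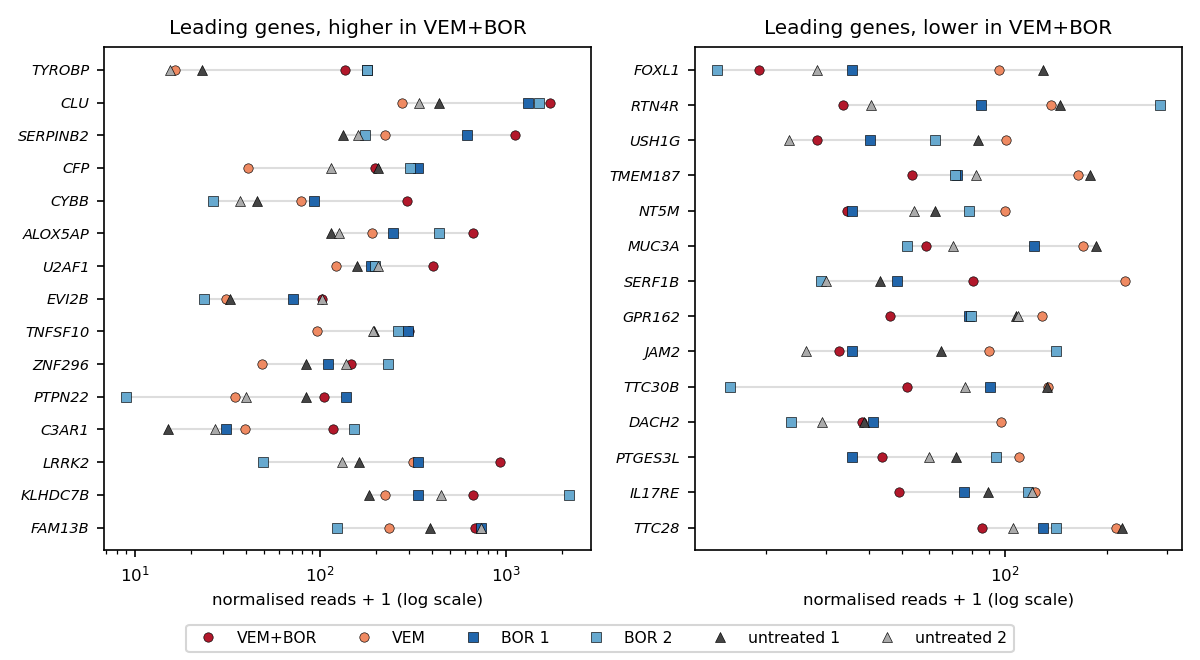
Normalised reads plus 1 (horizontal log axis) of the 15 leading protein-coding genes higher (left) and of 14 leading lower genes (right) in VEM+BOR than in VEM, with 1 point per library. For TYROBP and CLU the VEM+BOR and BOR points lie to the right of the VEM and untreated points, and for most genes on the right panel the untreated 2 point lies left of the untreated 1 point.

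The promoter windows of 4 leading genes and of CXCL8 are shown because these genes were higher together in VEM+BOR. Each window runs from 250 bases before to 50 bases after the RefSeq start, in build GRCh38.p14. Both strands were searched for AP-1 (TGANTCA), the cyclic AMP response element (TGACGTCA) and the heat shock element (GAANNTTC). The C/EBP-ATF composite site (TGATGNAA) and NF-kB (GGGRNNYYCC, with R for A or G and Y for C or T) were searched too. A binding site whose letters depart from these, such as an NF-kB site without the leading GGG, goes unmarked. Matches are in capitals, each window is written 5′ to 3′ on the gene's strand, and no 2 matches overlapped in these windows. The windows of TYROBP (chr19:35908246-35908545, minus strand), SERPINB2 (chr18:63887455-63887754, plus strand), CYBB (chrX:37779809-37780108, plus strand), ALOX5AP (chr13:30713235-30713534, plus strand) and CXCL8 (chr4:73740319-73740618, plus strand) read as follows.
TYROBP: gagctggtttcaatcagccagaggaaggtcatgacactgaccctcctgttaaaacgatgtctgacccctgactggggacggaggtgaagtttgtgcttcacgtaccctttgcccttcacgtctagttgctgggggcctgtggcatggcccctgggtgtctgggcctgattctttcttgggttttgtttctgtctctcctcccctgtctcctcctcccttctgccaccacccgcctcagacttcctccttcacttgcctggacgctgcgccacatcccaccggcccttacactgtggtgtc
SERPINB2: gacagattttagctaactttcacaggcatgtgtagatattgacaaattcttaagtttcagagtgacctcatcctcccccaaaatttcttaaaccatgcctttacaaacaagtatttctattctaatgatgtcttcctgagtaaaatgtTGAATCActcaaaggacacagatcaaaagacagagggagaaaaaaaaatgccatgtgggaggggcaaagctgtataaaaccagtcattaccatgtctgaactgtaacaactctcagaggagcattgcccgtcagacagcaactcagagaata
CYBB: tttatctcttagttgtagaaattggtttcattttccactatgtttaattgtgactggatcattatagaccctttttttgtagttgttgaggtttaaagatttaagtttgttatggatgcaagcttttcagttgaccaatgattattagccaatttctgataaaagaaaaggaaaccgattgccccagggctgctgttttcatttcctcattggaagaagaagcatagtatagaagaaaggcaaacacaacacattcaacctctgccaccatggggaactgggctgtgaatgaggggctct
ALOX5AP: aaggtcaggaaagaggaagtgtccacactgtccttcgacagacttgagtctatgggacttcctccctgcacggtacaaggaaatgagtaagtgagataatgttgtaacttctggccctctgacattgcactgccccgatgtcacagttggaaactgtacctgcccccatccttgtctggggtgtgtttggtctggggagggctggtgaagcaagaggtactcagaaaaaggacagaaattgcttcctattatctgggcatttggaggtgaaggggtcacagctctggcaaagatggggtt
CXCL8: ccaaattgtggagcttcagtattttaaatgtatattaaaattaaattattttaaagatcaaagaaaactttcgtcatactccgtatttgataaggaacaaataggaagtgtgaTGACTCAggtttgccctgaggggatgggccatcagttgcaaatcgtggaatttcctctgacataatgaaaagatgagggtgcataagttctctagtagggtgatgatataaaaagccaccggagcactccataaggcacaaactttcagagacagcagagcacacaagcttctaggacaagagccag

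The AP-1 letters occurred in SERPINB2 as TGAATCA, from base 149 to base 155 of the window, and in CXCL8 as TGACTCA, from base 114 to base 120. The windows of TYROBP, CYBB and ALOX5AP held none of the searched letters. Of the 15 leading higher genes, 13 were matched with 14 windows, and 2 windows (14.3%) held the AP-1 letters, against 7.71% of all 35116 RefSeq windows and 5.18% of the 15474 windows of genes kept. C/EBP-ATF letters were in 2 of these windows (14.3%), against 3.62% of all and 1.99% of those of genes kept. NF-kB letters were in 1 (7.14%), against 11.3% and 13.6%. The cyclic AMP element was in 0, against 1.85% and 2.62%, and the heat shock element in 0, against 6.77% and 4.86%. Of the 15 leading lower genes, 8 were matched with 11 windows, of which 1 (9.09%) held NF-kB letters and 0 any of the other motifs. A match is a description of letters and not a site, and windows of 1 gene overlap in part.

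The lists of phagocyte receptors, late granule proteins, serpins and cytokines held larger shares of 2-fold higher members than the 1.72% of all genes. These lists were chosen with earlier results of these data known, so the share of all genes is no fair baseline for them. Of the 20 kept genes for monocyte and phagocyte receptors and their signalling, 5 were at least 2-fold higher, 0 were 2-fold lower and 17 were higher by any amount, where 55.1% of all genes were higher by any amount. The median difference of the list was 0.58, against 0.05 over all genes and -0.61 for the same list in the untreated pair. FGR, a SRC-family kinase of neutrophils and monocytes, had 1600 normalised reads in VEM+BOR and 623 in VEM, with 414 and 165 in the BOR libraries against 229 and 109 in the untreated libraries. PADI4, the peptidylarginine deiminase that citrullinates histones in neutrophils, had 3329 in VEM+BOR and 1402 in VEM, with 568 and 558 in the BOR libraries against 247 and 87.1 in the untreated libraries. For both genes VEM already lay above every BOR and untreated library, and VEM+BOR lay above VEM. For PADI4 the untreated pair differed by more, -1.49 beside its 1.25 on the log2 scale. For FGR the untreated pair differed by less, -1.06 beside 1.36. NLRP12, a nucleotide-binding receptor that restrains inflammation, had 253 normalised reads in VEM+BOR and 104 in VEM, and the scavenger receptor CD36 had 35.3 and 12.7. The low counts of CD36 leave its ratio between 1.47 and 5.53.

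Late granule and secreted defence genes had a median difference of 0.61, with 4 of 10 members 2-fold higher and 1 lower. S100A8, a subunit of the calcium-binding protein calprotectin, had 7219 normalised reads in VEM+BOR and 3322 in VEM, with 3594 and 4723 in the BOR libraries against 1464 and 2078 in the untreated libraries. VEM+BOR was the highest library, VEM lay just below BOR 1, and the untreated libraries were the lowest. Its partner S100A9 stood at 77597 in VEM+BOR and 78627 in VEM, a log2 difference of -0.02. MMP9, a gelatinase of neutrophil granules, had 239.9 normalised reads in VEM+BOR and 91.0 in VEM, but the untreated pair differed more, by 1.96 on the log2 scale. Lactoferrin (LTF) had 38.0 and 10.9 and lysozyme (LYZ) 44.4 and 14.6 in VEM+BOR and VEM. CHI3L1 was the member that was lower, with 2079 normalised reads in VEM+BOR and 4319 in VEM, a ratio of 0.481 (0.458 to 0.506). It stood at 4332 and 11230 in the BOR libraries and at 7652 and 11711 in the untreated libraries, so VEM+BOR was the lowest of the 6 libraries.

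Among plasminogen activators and serpins 3 of 7 members were 2-fold higher, with a median difference of 0.97 against 0.20 in the untreated pair. SERPINB8, an intracellular protease inhibitor, had 632 normalised reads in VEM+BOR and 281 in VEM. PLAUR, the urokinase receptor, had 1897 in VEM+BOR and 967 in VEM, a ratio of 1.96-fold (1.82 to 2.11), just under 2-fold. Its ligand PLAU went the other way, with 167 in VEM+BOR and 265 in VEM. All 3 genes had more reads in BOR 2 than in any other library, 1394 for SERPINB8, 10215 for PLAUR and 1062 for PLAU.

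Chemokines and cytokines had 5 of 21 members 2-fold higher and 0 lower, with a median of 0.31. CXCL8, which draws neutrophils, was the most abundant of them, with 19676 normalised reads in VEM+BOR and 7659 in VEM, and 2381 and 44852 in the BOR libraries against 937 and 3075 in the untreated libraries. The ratio was 2.57-fold (2.51 to 2.63), but the untreated pair differed by more, 1.71 against 1.36 on the log2 scale. The same held for CCL2, the monocyte chemoattractant, at 1370 in VEM+BOR and 445 in VEM (1.62, against 1.87 for the untreated pair), and for CXCL2 at 91.4 and 37.3 (1.27, against 2.11). It also held for IL1B, at 37.1 in VEM+BOR and 15.5 in VEM (1.21, against -2.27 for the untreated pair). TNF, the inflammatory cytokine, had 76.0 in VEM+BOR and 28.2 in VEM, and 5.48 and 111 in the BOR libraries against 4.38 and 5.81 in the untreated libraries. Its difference of 1.40 exceeded the untreated difference of 0.34, which held for no other of the 5 members past 2-fold. CCL5, a T cell attracting chemokine, stood lower, at 6027 in VEM+BOR and 8365 in VEM.

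The phagocyte oxidase list had 1 of 7 members 2-fold higher, CYBB, and a median of 0.32. NCF1, a cytosolic subunit of the oxidase, had a difference of 0.75, and it shares reads with near-identical pseudogenes. CYBA, the membrane partner of CYBB, had 10789 normalised reads in VEM+BOR and 8631 in VEM. Azurophil granule genes had 0 of 10 members past 2-fold in either direction and a median of -0.21, against 0.40 in the untreated pair. AZU1, which encodes azurocidin, had 9288 normalised reads in VEM+BOR and 16124 in VEM, with 18855 and 16300 in the BOR libraries against 24140 and 24534 in the untreated libraries. Myeloperoxidase (MPO) had 4723 in VEM+BOR and 6464 in VEM, against 15239 to 18446 in the untreated libraries. For both genes the libraries with vemurafenib were the lowest, and VEM+BOR lay below VEM. Of 14 transcription factors of the lineage 0 were past 2-fold, with differences from -0.54 for EGR2 to 0.82 for KLF2. NFE2, a factor of granulocytes and erythroid cells, had 699.7 normalised reads in VEM+BOR and 417 in VEM, and the differences of SPI1 and CEBPA were 0.36 and 0.05.

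**Figure D3:**
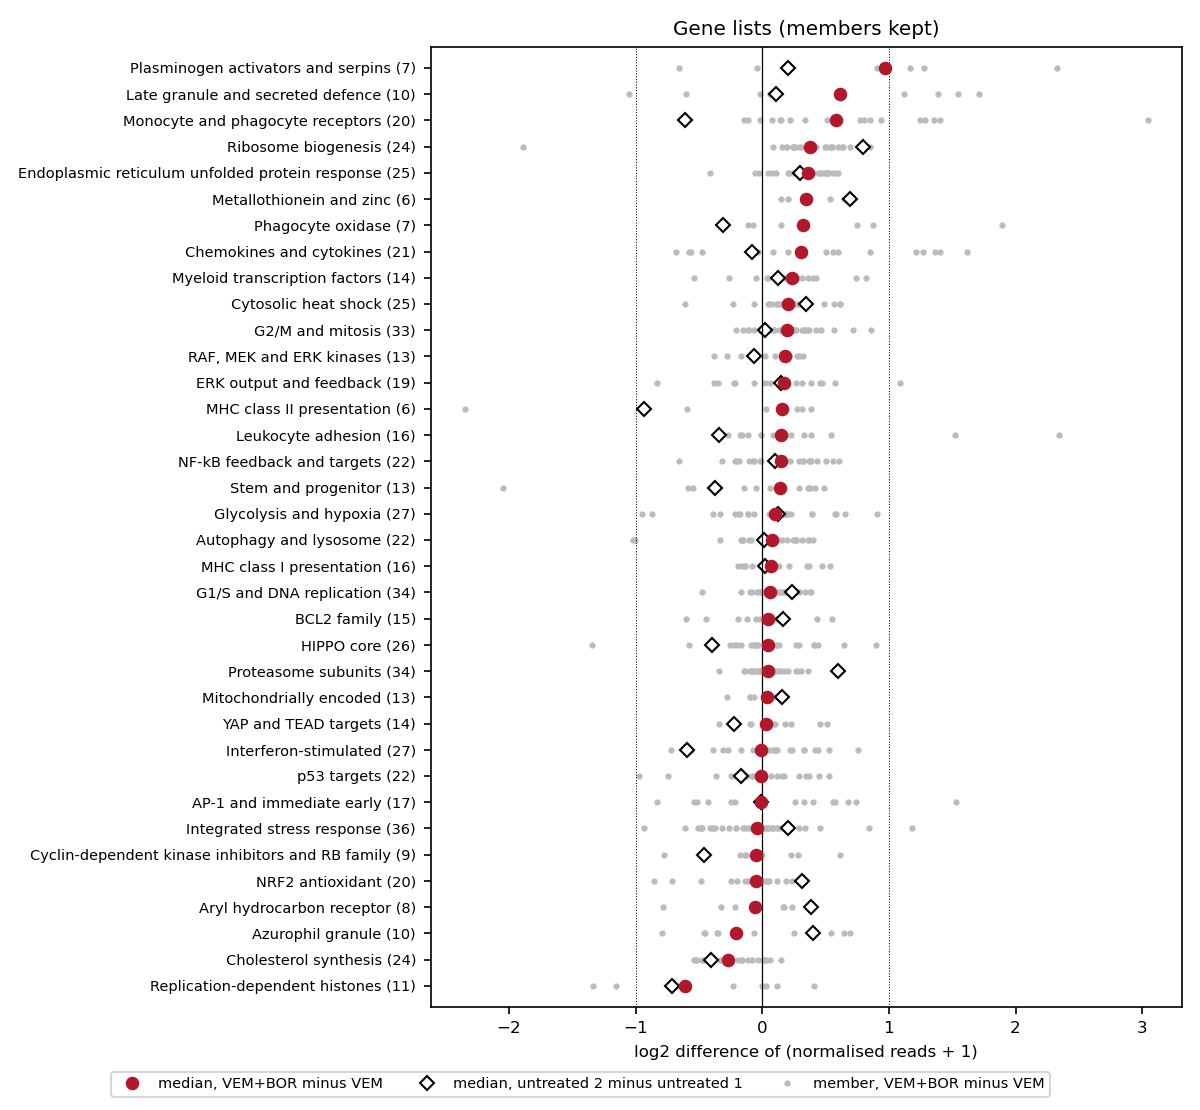
Log2 differences (horizontal axis) of the members of each gene list, with the number of members kept in brackets. Grey points are members for VEM+BOR minus VEM, red circles their medians, open diamonds the medians of the untreated pair, and dotted lines 2-fold. Serpins, late granule genes and phagocyte receptors have the highest medians (0.97, 0.61 and 0.58), and replication-dependent histones the lowest (-0.61, beside -0.71 for the untreated pair).

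Genes of RAF signalling, the target of vemurafenib, were close in both libraries. BRAF had 340.4 normalised reads in VEM+BOR and 295 in VEM, a ratio of 1.16-fold (0.993 to 1.34). ARAF also had a ratio of 1.16-fold (1.10 to 1.22). With 1.72% of all genes 2-fold higher and 3.6% 2-fold lower, the counts that follow are near the background. Of 13 RAF, MEK and ERK kinases 0 were past 2-fold, with differences from -0.38 to 0.33. Of 19 genes of ERK output and feedback 1 was, PHLDA1, with 158 normalised reads in VEM+BOR and 73.7 in VEM, and the median was 0.17 against 0.15 in the untreated pair. EGR1, an immediate early transcription factor, stood the other way, with 676 in VEM+BOR and 1202 in VEM, but the untreated pair differed by -0.91 beside its -0.83. FOSL2, an AP-1 subunit, was the AP-1 and immediate early gene past 2-fold, 1 of 17, with 176 normalised reads in VEM+BOR and 60.0 in VEM, and 84.9 and 1287 in the BOR libraries against 48.2 and 28.1 in the untreated libraries.

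The HIPPO pathway restrains growth through the LATS kinases, which keep the coactivator YAP1 out of the nucleus. Its genes had a median difference of 0.05, with 0 of 26 members 2-fold higher and 1 lower, FRMD6, at 10.9 normalised reads in VEM+BOR and 29.1 in VEM. YAP1 had 211 normalised reads in VEM+BOR and 206 in VEM, a ratio of 1.02-fold (0.847 to 1.23), and 0 of 14 YAP and TEAD targets were past 2-fold. With 1.72% of all genes 2-fold higher and 3.6% 2-fold lower, these counts are near the background. The atypical cadherin FAT1 had 1448 in VEM+BOR and 777 in VEM, and the kinase LATS1 had 335 and 246. Of the 9 genes for cyclin-dependent kinase inhibitors and the RB family, 0 were past 2-fold, with differences from -0.78 for CDKN1C to 0.62 for RBL1. CDKN1A, which encodes p21, had 1188 normalised reads in VEM+BOR and 1226 in VEM, a ratio of 0.969 (0.897 to 1.05), while the untreated pair differed by -1.27 on the log2 scale. CDKN2A, which encodes p16 and ARF, had 8611 in VEM+BOR and 9737 in VEM, a ratio of 0.884 (0.860 to 0.909).

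Mitosis genes were mostly a little higher in VEM+BOR. Of 33 G2/M genes 27 were higher by any amount, 0 were past 2-fold, and the median was 0.20 against 0.02 in the untreated pair. Of all genes, 55.1% were higher by any amount, 1.72% were 2-fold higher and 3.6% 2-fold lower. MKI67, the proliferation antigen Ki-67, had 3539 normalised reads in VEM+BOR and 1952 in VEM, and 4095 and 719 in the BOR libraries against 6973 and 5338 in the untreated libraries. Its ratio was 1.81-fold (1.72 to 1.91), and both libraries with vemurafenib lay below both untreated libraries. CENPF, a kinetochore protein, had 1672 in VEM+BOR and 1017 in VEM, and the spindle protein ASPM had 1180.4 and 799, but for both the untreated pair differed by more. The 34 genes of G1/S and DNA replication had a median of 0.06, and 0 were past 2-fold.

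Stress genes differed in both directions, and few were past 2-fold. Genes of the endoplasmic reticulum unfolded protein response were higher in VEM+BOR for 22 of 25 members, and 0 were past 2-fold. Their median was 0.36, beside 0.30 for the untreated pair. Of all genes, 55.1% were higher by any amount, 1.72% were 2-fold higher and 3.6% 2-fold lower. HSPA5, the chaperone BiP, had 30028 normalised reads in VEM+BOR and 19940 in VEM, and 38054 and 111171 in the BOR libraries against 23812 and 33747 in the untreated libraries. Cytosolic heat shock genes were higher for 22 of 25 members, with a median of 0.20 beside 0.35 for the untreated pair. DNAJA1, a co-chaperone of HSP70, had 6189 in VEM+BOR and 4046 in VEM. Proteasome subunits had a median of 0.04, and 0 of 34 were past 2-fold or differed by more than the untreated pair did. Several targets of the amino acid stress factor ATF4 were lower in VEM+BOR. ASNS, asparagine synthetase, had 179 normalised reads in VEM+BOR and 344 in VEM, with 47.5 and 616 in the BOR libraries against 62.2 and 50.3 in the untreated libraries. DDIT4, an inhibitor of mTORC1, had 1221 in VEM+BOR and 1734 in VEM, and CHAC1, which degrades glutathione, had 612 and 854. INHBE, an activin subunit gene, had 322 and 448. In VEM+BOR all 4 were above both untreated libraries. Over the whole integrated stress response list the median was -0.04, with 18 of 36 members higher and 1 past 2-fold, GDF15, at 28.1 normalised reads in VEM+BOR and 11.8 in VEM.

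Cholesterol synthesis genes were lower in VEM+BOR for 19 of 24 members, with a median of -0.27 beside -0.41 for the untreated pair. Of all 15438 genes, 8508 (55.1%) were higher by any amount and 6927 lower. Past 2-fold, 1.72% of all genes were higher and 3.6% lower. FDFT1, squalene synthase, had 5047 normalised reads in VEM+BOR and 7232 in VEM. In the BOR libraries the same list stood the other way, with 19 of 24 members above both untreated libraries in both, where 11.5% of all genes were. Ribosome biogenesis genes were higher in VEM+BOR for 23 of 24 members, with a median of 0.38, and the same list differed by 0.80 between the untreated libraries. The remaining member, the nucleolar methyltransferase gene NOP2, was the 1 past 2-fold, with 2.72 normalised reads in VEM+BOR and 12.7 in VEM. Replication-dependent histones had a median of -0.61, and since most of their transcripts carry no poly-A tail, poly-A libraries sample them poorly. The interferon-stimulated list had a median of -0.01 and that of p53 targets one of -0.01, with 0 members past 2-fold in each. CYP1A1, a target of the aryl hydrocarbon receptor, had 30.8 normalised reads in VEM+BOR and 53.7 in VEM, with 145 and 98.7 in the BOR libraries against 180.4 and 230.3 in the untreated libraries. These lists were described with earlier results of these data known, and a median near that of the untreated pair says nothing about the list.

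The 15 leading lower genes were less abundant than the higher ones, with pair means of 56.8 to 152, and followed the untreated pair more often. In 13 of the 15 the gene was also lower in untreated 2 than in untreated 1, whereas 8 of the 15 leading higher genes were also higher in untreated 2. All genes with a pair mean of 50 to 200 had a median untreated difference of -0.21. That median was 0.02 at 200 to 1000 and 0.19 from 1000 on. The part of expression level in these counts was not tested. FOXL1, a forkhead transcription factor, had 18.1 normalised reads in VEM+BOR and 95.5 in VEM, with 34.7 and 13.3 in the BOR libraries against 129 and 27.1 in the untreated libraries. Its log2 difference was -2.34, and that of the untreated pair -2.21. RTN4R, the Nogo receptor, had 32.6 in VEM+BOR and 136 in VEM, with 84.0 and 284 in the BOR libraries against 145 and 39.7 in the untreated libraries. GPR162, an orphan receptor, was one of the 2 genes below both untreated libraries in both BOR libraries. It had 45.3 normalised reads in VEM+BOR and 127 in VEM, with 77.6 and 78.7 in the BOR libraries against 107 and 108 in the untreated libraries, and a ratio of 0.355 (0.252 to 0.494). Others were USH1G, TMEM187, NT5M, MUC3A, SERF1B, JAM2, TTC30B, DACH2, PTGES3L, IL17RE and TTC28, with differences from -1.84 to -1.30. SERF1B has a near-identical copy, SERF1A, so its value is uncertain.

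Among long non-coding RNAs, 2 were in the higher group under the same limits, SH3BP5-AS1 (205 normalised reads in VEM+BOR and 87.3 in VEM) and SLC25A25-AS1 (349 and 173). Both are antisense genes. Without a stated strand-marking step in the protocol, their reads and those of their sense partners cannot be told apart. UCA1, a long non-coding RNA first described in urothelial cancer, was among the lower ones. It had 38.9 normalised reads in VEM+BOR and 140.1 in VEM, and 257 and 1337 in the BOR libraries against 1343 and 806 in the untreated libraries. Its ratio was 0.278 (0.193 to 0.392). Both libraries with vemurafenib lay far below the untreated pair, and VEM+BOR was the lowest of all 6. FLVCR1-DT and AC092117.1 were the other lower ones, with differences of -1.53 and -1.47.

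BOR against untreated cells shares no library with VEM+BOR against VEM, so the same genes were looked up there. Of the 266 genes higher in VEM+BOR, 62 (23.3%) lay above both untreated libraries in both BOR libraries, against 1768 of all genes (11.5%). In the opposite direction 21 (7.89%) lay below, against 1304 of all genes (8.45%). Of the 556 lower genes, 108 (19.4%) lay below both untreated libraries in both BOR libraries, against 8.45% of all, and 24 (4.32%) above, against 11.5% of all. The 2 BOR libraries differed in this. In BOR 1, 47.0% of the higher genes lay above both untreated libraries, against 29.9% of all genes, whereas in BOR 2 it was 43.2%, against 43.8% of all. For the lower genes 33.5% lay below in BOR 1, against 20.7% of all, and 44.2% in BOR 2, against 41.7%. BOR 1 was thus the library in which the shares stood further from those of all genes. Over all 15438 genes, the difference VEM+BOR minus VEM correlated at 0.23 with BOR 1 minus the untreated mean and at -0.01 with BOR 2 minus the untreated mean. These are correlations over genes, whose points share the scaling and the gene's level, and whether either exceeds chance was not tested. Of the 15 leading higher genes 7 lay above both untreated libraries in both BOR libraries and 0 below. Of the 15 leading lower genes 2 lay below in both and 0 above. Leading genes had to differ by more than the untreated pair, so the untreated libraries entered their choice. The shares of all genes are therefore no fair baseline for these counts.

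**Figure D4:**
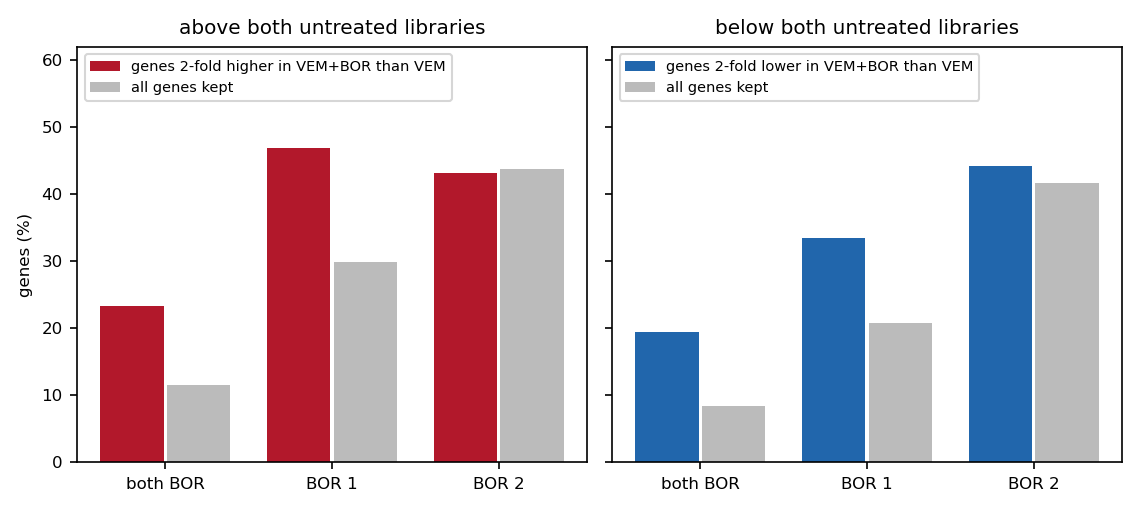
Share of genes (vertical axis, percent) above both untreated libraries (left) and below both (right), in both BOR libraries together and in each alone. Coloured bars are genes at least 2-fold higher (red) or lower (blue) in VEM+BOR than in VEM and grey bars all genes kept; the bars part for both libraries together (23.3% and 11.5% above, 19.4% and 8.45% below) and for BOR 1, and lie close for BOR 2.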

How the data were processed

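RNA of 6 SKM-1 libraries was sequenced after poly-A selection, per the labels' protocols. The authors deposited 3 tables, each with a normalised signal per gene and library, obtained by dividing each library's read counts by a single factor. The submitters' processing notes list edgeR 3.22.5, DESeq2 1.20.0, featureCounts 1.5.0-p3, HISAT2 2.0.5 and CASAVA, with no role for any. A genome build was not given in the sources read, but for all 23519 genes shared by the 3 tables, coordinates and symbols are those of GENCODE 29 (GRCh38). Divided by the smallest step of its column, each deposited signal value came out whole within 0.001 (100%), which gives back the reads, but the step of the VEM column is so near 1 that this says little there. No count test was run, since each group of the comparison holds 1 library. Replicate numbers follow accession order, and whether a group's libraries are separate cultures is not stated.

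The 6 libraries were brought to 1 scale with median-of-ratios factors over the 17760 genes above 0 in every library, in Python 3.11.15 with pandas 2.3.3. Recovered reads ran from 17252404 to 18507606 per library, and fewer reads give lower precision. Values were compared as log2(value + 1), which understates changes of low genes, for genes with a mean of at least 10. Named genes were the 15 highest and 15 lowest protein-coding differences with a pair mean of at least 50, at least 2-fold and past that of the untreated pair, 3 long non-coding RNAs per direction likewise, up to 4 members per list with a pair mean of at least 20, and a set of 17 genes. A few genes chosen this way are not reported here. Names outside this rule were chosen after their values were seen. Members and lists were chosen with earlier results of these data known. The scripts were tested on simulated data. Alternatives were other scalings (TMM in edgeR 4.0.16 under R 4.3.3), filters, pseudocounts, protein-coding genes only and leaving out replicates. Promoter sequences are from RefSeq.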

Additional observations from a re-analysis of the deposited data

Results flagged for a closer look

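A set of 7 of the 192 named genes stood in opposite directions under the addition of BOR with vemurafenib and without it. VEM+BOR lay above VEM and both BOR libraries below both untreated libraries, or the reverse. The difference between VEM+BOR and VEM was also larger in size than that of the untreated pair. Only named genes were searched, and the share of all genes that meet this rule was not counted. Of all genes, 11.5% lay above and 8.45% below both untreated libraries in both BOR libraries. Of the 15438 genes, 5303 differed by more than the untreated pair. MT-ND1 (0.12), MT-ND6 (0.14), HMGCS1 (-0.53) and INSIG1 (-0.54) had the same opposite directions but differed by less than the untreated pair. The difference between the directions was not tested. MKI67, the proliferation antigen, was higher in VEM+BOR than in VEM by 0.86 on the log2 scale and lower in both BOR libraries than in both untreated libraries. MT-ND3, a mitochondrially encoded subunit of complex I, showed the same pattern with a difference of 0.13, beside 0.09 for the untreated pair. The other genes were lower in VEM+BOR than in VEM and higher in both BOR libraries than in both untreated libraries. Among them were the stress genes INHBE (-0.48) and CHAC1 (-0.48), the cholesterol synthesis genes IDI1 (-0.48) and FDFT1 (-0.52), and USP18 (-0.56), an interferon-stimulated protease.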

How the results depend on the processing

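Counts of genes past 2-fold depended on how low values were treated. All 30 leading genes kept their sign and stayed at least 2-fold apart in every setting that measured them. They had been chosen for the largest differences with a pair mean of at least 50, and were not chosen anew in each setting. That outcome was therefore largely fixed by the choice and is no check of robustness. With no filter on low values 1278 genes were higher and 1851 lower, with an SD of 0.745, 986 and 1316 past the untreated difference, and 160 and 369 shared in direction with both BOR libraries. With a mean of at least 50 these counts were 69 and 132, 60 and 73, and 23 and 19. With a pseudocount of 10 they were 97 and 214, 89 and 154, and 37 and 39. Among protein-coding genes alone they were 166 and 308, and 144 and 187, with 40 lower genes shared with BOR. These settings test fewer or more low genes or shrink them by construction. Scaling by the sum over the joined genes gave 178 lower genes shared with both BOR libraries, and the cause was not tested. Leaving out a BOR replicate, an alternative chosen after seeing the data, gave 114 to 125 shared higher genes and 203 to 238 shared lower genes, since only 1 library then has to agree. Of 479 list medians under the alternatives, 17 took the other sign, among them that of the HIPPO core list, with a lowest value of -0.03. Further such values were -0.0125 for MHC class I and -0.0028 for autophagy under sum scaling, and 0.0019 for AP-1 genes without BOR replicate 1, where leaving out replicates gave -0.032 to 0.0019. Counts with TMM (268 and 590) or with the values as deposited (267 and 586) were near the 266 and 556 given. Shared counts could not be computed without an untreated replicate. No paired analysis was possible because the replicate numbers only follow accession order and each group of the comparison holds 1 library. With 1 library a side, depth bounds counting error but not the spread between cultures.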

Other observations

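Among the abundant genes, those with a pair mean of at least 1000 normalised reads, the 11 that were 2-fold higher in VEM+BOR included several not described above. They are named here after their values were seen. S100A4, a calcium-binding protein linked to cell motility, had 9823 normalised reads in VEM+BOR and 4327 in VEM, with 10556 and 10008 in the BOR libraries against 5938 and 4210 in the untreated libraries. S100A6, its neighbour in the S100 cluster, had 7282 in VEM+BOR and 3573 in VEM, with 5290 and 8124 in the BOR libraries against 3421 and 3546 in the untreated libraries. For both genes every library with BOR lay above every untreated library, and S100A4 and S100A6 were lower in VEM than in all 3 libraries with BOR. Both were picked as 2-fold higher in VEM+BOR than in VEM, which is part of that order. Of all genes, 11.5% lay above both untreated libraries in both BOR libraries. VIM, the intermediate filament vimentin, had 1406 in VEM+BOR and 691 in VEM, with 725 and 5848 in the BOR libraries against 419.5 and 439 in the untreated libraries. CES1, a carboxylesterase of monocytes, had 2264 in VEM+BOR and 970 in VEM, with 2139 and 3599 in the BOR libraries against 1292 and 1904 in the untreated libraries. The remaining genes were MEGF9 and SMG1, for which BOR 2 lay below BOR 1, and SMG1 has near-identical pseudogenes.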
